A study of Homo sapiens with 48 samples.

Results

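SW780 is an established human cell line from a transitional cell carcinoma of the bladder. Its untreated expression profile was taken from the 3 SW780 libraries that received the vehicle DMSO, out of 48 RNA sequencing libraries in all. They were set against the 21 DMSO libraries of 7 other bladder cancer lines, 639V, HT1197, HT1376, KU1919, T24, TCCSUP and VMCUB, with 3 libraries a line and each of those lines taken as 1 unit. The remaining 24 libraries, 3 a line, came from the same lines exposed to CPI-0209, which blocks the histone methyltransferase EZH2, at 250 nM for 4 days, and serve here to repeat the comparison. All 8 lines are carcinoma lines in culture, each group is a single line, and no normal urothelium was analysed here. SW780, VMCUB and 639V were grown in DMEM and the other lines in other media, so a difference between SW780 and those lines cannot be told apart from one between media. The labels number the libraries of a line from 1 to 3 without saying whether they came from separate cultures, so p-values between libraries measure a spread that may be technical. In bulk RNA, fewer cells expressing a gene and less RNA per cell cannot be told apart.

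The urothelium lining the bladder is layered. Basal cells carry the keratins KRT5 and KRT14 and the transcription factor TP63, and the umbrella cells at the surface carry uroplakins, membrane proteins that form rigid plaques facing the urine. FOXA1, GATA3 and PPARG are transcription factors of the luminal, differentiated programme, and bladder cancers are commonly sorted into luminal and basal types by such genes. Activating changes of the receptor tyrosine kinase FGFR3 and loss of the cell cycle inhibitor genes CDKN2A and CDKN2B are frequent in this cancer.

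The SW780 DMSO libraries held 31727497 to 47310961 counts, and the DMSO libraries of the other lines held 29759605 to 49358560. Mitochondrial genes took 4.63 to 5.26% of the counts in SW780 and 1.75 to 5.08% in the others. Levels are CPM, counts scaled to a common library total, with TMM factors over the 24 DMSO libraries. Among the other lines, the T24 libraries stood apart from each other. KRT5 had 67.2, 20.8 and 0.868 CPM in T24 replicates 1, 2 and 3, and KRT6A had 60.9, 18.6 and 0.804 CPM. The counts by gene are therefore also given without T24 replicates 1 and 2, a choice made after the data were seen.

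SW780 was described by 3 measures. In the first, counts were summed per line and the SW780 sum was tested against the 7 other sums with edgeR's quasi-likelihood test. In the second, over single libraries, a gene was called above or below every other line when SW780 differed from each of the 7 lines by at least 2-fold in the same direction with an adjusted p under 0.05 in each contrast. In the third, a gene was counted as expressed in a line at a mean of 1 CPM or more and as off under 0.1 CPM.

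Summed by line, 8 of 21498 genes were higher in SW780 (0.0372%) and 9 were lower (0.0419%) at an adjusted p under 0.05. At an unadjusted p under 0.05 the counts were 389 higher (1.81%) and 319 lower (1.48%). The SW780 sum is a single unit assumed to vary like the other lines, and without KU1919 the test called no gene in either direction. Scaling by library totals in place of TMM factors gave 13 higher and 8 lower. Without T24 replicates 1 and 2 the counts were 8 and 9. The median log2 difference over all genes tested was -0.25 with TMM and -0.04 with library totals.

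Over single libraries, 402 of 18643 genes lay above every other line (2.16%) and 248 lay below every other line (1.33%). Library totals gave 503 above and 197 below. The same rule gave 179 to 786 genes above and 165 to 554 genes below for the 7 other lines. Without T24 replicates 1 and 2, 406 genes lay above and 233 below. Of the 402 genes, 322 were protein-coding, 93 exceeded every line by at least 8-fold and 192 were under 1 CPM in the other lines. Of the 248 genes, 235 were protein-coding, 82 were at least 8-fold lower than every line and 163 were under 1 CPM in SW780.

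The genes at the upper end included mucins and other secreted products, and several genes best known from other tissues. MUC2, the gel-forming mucin of the intestinal goblet cell, had 270.3, 262 and 264 CPM in the 3 SW780 libraries, against 0 to 1.08 CPM (median 0.133) in the 21 libraries of the other lines. All 3 SW780 libraries stood above every other library, and the log2 difference was 9.95 ± 1.06 (SE, edgeR adjusted p = 0.0259). The MUC2 call was lost without any 1 of the other lines except HT1376 (edgeR adjusted p up to 0.0962). MUC20, a membrane mucin, had 132, 127 and 142 CPM in SW780, against 0.0643 to 1.36 CPM (median 0.315) in the others, and the groups did not overlap (8.07 ± 0.67, adjusted p = 0.0112). A pseudogene copy, MUC20P1, had 8.71 CPM in SW780 and was also called above every line, so the split of reads between the copies is uncertain.

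CLCA4, a secreted protein of the chloride channel accessory family known from the colon, had 5.06, 6.19 and 6.01 CPM in SW780, against 0 to 0.057 CPM (median 0) in the other lines. CLEC12A, a lectin receptor best known from myeloid cells, had 11.9, 14 and 15.4 CPM in SW780, against 0 to 0.112 CPM (median 0.042). The groups of libraries were separate for both genes, with log2 differences of 9.07 ± 1.08 for CLCA4 (edgeR adjusted p = 0.0383) and 8.37 ± 0.93 for CLEC12A (adjusted p = 0.0304). The call of CLCA4 was lost without any 1 of the other lines (edgeR adjusted p up to 0.122) and with thinned counts (0.0768). It was also lost without any 1 of HT1197 replicate 2, HT1376 replicates 1 and 2, KU1919 replicate 3 and VMCUB replicate 2 (up to 0.0574). That of CLEC12A was lost without any 1 of the other lines except HT1197 and HT1376 (up to 0.0962). It was also lost without HT1376 replicate 2 (0.0637) or 639V replicate 1 (0.0716).

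PROKR2, a prokineticin receptor, had 1.87, 1.5 and 1.93 CPM in SW780, from 248 counts, against 1 count in all 21 other libraries together. That is a ratio of 1447, with an exact Poisson 95% interval of 259.8 to 57168 that covers counting error only. The low-count filter of the line-level test asks for enough counts in a single sum. PROKR2, like CLCA4, met it only through the SW780 sum, where it is high, so its adjusted p adds nothing to that level. Its edgeR call (adjusted p = 0.0319) was lost without HT1197 replicate 3 (0.845) or replicate 2 (0.0507), and without any 1 of the other lines (up to 0.758). BPIFB1, a secreted protein of airway epithelium, had 1.29, 1.33 and 1.52 CPM in SW780, against 0 to 0.107 CPM (5.02 ± 0.63, adjusted p = 0.0492). The BPIFB1 call held in 14 of 39 alternatives and was lost without any 1 line (adjusted p up to 0.166), without T24 replicates 1 and 2 (0.086), with thinned counts (0.0955), with no filter (0.0711) and with limma voom (0.181). The other 2 genes called higher were a noncoding gene listed as AC011487.2, with 47.7, 48.4 and 52.5 CPM in SW780 and 0.0222 to 0.266 CPM in the others (8.65 ± 0.60, adjusted p = 0.00814), and WASH6P, a member of a family of near-identical copies whose counts are uncertain (2.37 ± 0.30, adjusted p = 0.0492, up to 0.0572 with 1 library left out). Of the same 39 alternatives, the call held in 38 for AC011487.2 and MUC20, 33 for MUC2, 32 for CLEC12A, 30 for PROKR2, 26 for CLCA4 and 22 for WASH6P, and all 8 were lost without KU1919. That of WASH6P was lost without any 1 of the other lines except HT1376 (edgeR adjusted p up to 0.145).

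BCAS1 stood above every line by a wide margin without passing the line-level test. This gene, named for its amplification in breast cancer, had 103, 100.5 and 98.5 CPM in SW780, against 0 to 1.85 CPM (median 0.135) in the others. Its groups did not overlap, and the smallest log2 difference from any line was 6.13, while the edgeR line-level adjusted p was 0.0743.

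Promoter windows are shown for 4 genes that SW780 expresses and 2 that it lacks, chosen by hand among the genes above or below every other line. All but UPK1A also passed the line-level test. UPK2 and UPK3A were chosen as well but had no window available. The windows run from 250 bases before to 50 bases after the RefSeq transcription start (GRCh38.p14), 5′ to 3′ on the gene's strand. Capitals mark matches on either strand to a GATA motif (AGATAA), forkhead motifs (TGTTTAC and TGTTTGC), a grainyhead-like motif (AACNNGTT) and a nuclear receptor motif (AGGTCA), and no matches overlapped. The windows are UPK1A on chr19:35666267-35666566 (plus strand), MUC2 on chr11:1074624-1074923 (plus strand), CLCA4 on chr1:86546828-86547127 (plus strand), CLEC12A on chr12:9971159-9971458 (plus strand), RASSF1 on chr3:50337401-50337700 (minus strand) and TUSC2 on chr3:50328174-50328473 (minus strand).
UPK1A: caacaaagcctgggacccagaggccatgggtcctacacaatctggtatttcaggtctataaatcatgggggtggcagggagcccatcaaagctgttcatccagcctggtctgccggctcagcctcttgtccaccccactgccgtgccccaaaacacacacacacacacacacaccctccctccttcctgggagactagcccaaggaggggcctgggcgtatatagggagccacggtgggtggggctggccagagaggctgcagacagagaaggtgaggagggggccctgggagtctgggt
MUC2: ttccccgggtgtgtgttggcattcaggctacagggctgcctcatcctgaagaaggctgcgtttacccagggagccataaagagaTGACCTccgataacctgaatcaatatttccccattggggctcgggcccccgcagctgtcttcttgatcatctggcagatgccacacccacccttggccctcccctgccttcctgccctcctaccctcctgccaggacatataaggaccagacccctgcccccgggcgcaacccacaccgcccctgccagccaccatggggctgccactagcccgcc
CLCA4: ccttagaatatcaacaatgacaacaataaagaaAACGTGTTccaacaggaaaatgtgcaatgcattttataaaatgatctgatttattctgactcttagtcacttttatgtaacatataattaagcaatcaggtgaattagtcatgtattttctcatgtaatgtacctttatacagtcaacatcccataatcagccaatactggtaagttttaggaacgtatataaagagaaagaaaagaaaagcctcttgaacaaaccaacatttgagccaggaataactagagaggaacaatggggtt
CLEC12A: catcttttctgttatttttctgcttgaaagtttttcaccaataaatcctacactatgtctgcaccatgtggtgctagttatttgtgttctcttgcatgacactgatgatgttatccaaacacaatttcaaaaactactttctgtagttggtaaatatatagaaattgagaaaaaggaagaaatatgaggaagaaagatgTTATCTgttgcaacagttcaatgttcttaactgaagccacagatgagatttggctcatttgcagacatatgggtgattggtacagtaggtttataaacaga
RASSF1: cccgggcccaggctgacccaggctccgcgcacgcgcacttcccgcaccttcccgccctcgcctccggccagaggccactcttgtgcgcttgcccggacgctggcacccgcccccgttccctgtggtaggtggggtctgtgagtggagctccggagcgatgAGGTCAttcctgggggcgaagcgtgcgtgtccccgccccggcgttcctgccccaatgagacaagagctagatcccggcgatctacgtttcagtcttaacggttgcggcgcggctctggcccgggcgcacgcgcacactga
TUSC2: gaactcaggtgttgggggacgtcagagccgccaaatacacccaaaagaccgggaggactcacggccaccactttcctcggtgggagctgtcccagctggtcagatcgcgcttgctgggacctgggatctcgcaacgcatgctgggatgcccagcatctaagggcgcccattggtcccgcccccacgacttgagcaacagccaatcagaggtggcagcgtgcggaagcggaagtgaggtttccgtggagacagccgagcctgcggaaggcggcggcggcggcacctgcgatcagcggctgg

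Of 27305 windows in the RefSeq table, 10.5% held AGATAA, 3.41% TGTTTAC, 3.87% TGTTTGC, 3.5% AACNNGTT and 13.9% AGGTCA. Among the 6 shown, MUC2 and RASSF1 held AGGTCA, CLCA4 held AACNNGTT and CLEC12A held AGATAA, and the UPK1A and TUSC2 windows held none of these letters. The 4 windows of genes that SW780 expresses had few CpG dinucleotides, with 4 in UPK1A, 9 in MUC2, 2 in CLCA4 and 0 in CLEC12A. The 2 windows of genes it lacks had 33 in RASSF1 and 24 in TUSC2, against a median of 14 over all windows. Windows of the other genes above or below every line were not examined. The RASSF1 window lies inside the annotated gene (chr3:50329782-50340980). It therefore covers an internal start and not the outermost one, which was not examined.

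**Figure D1:**
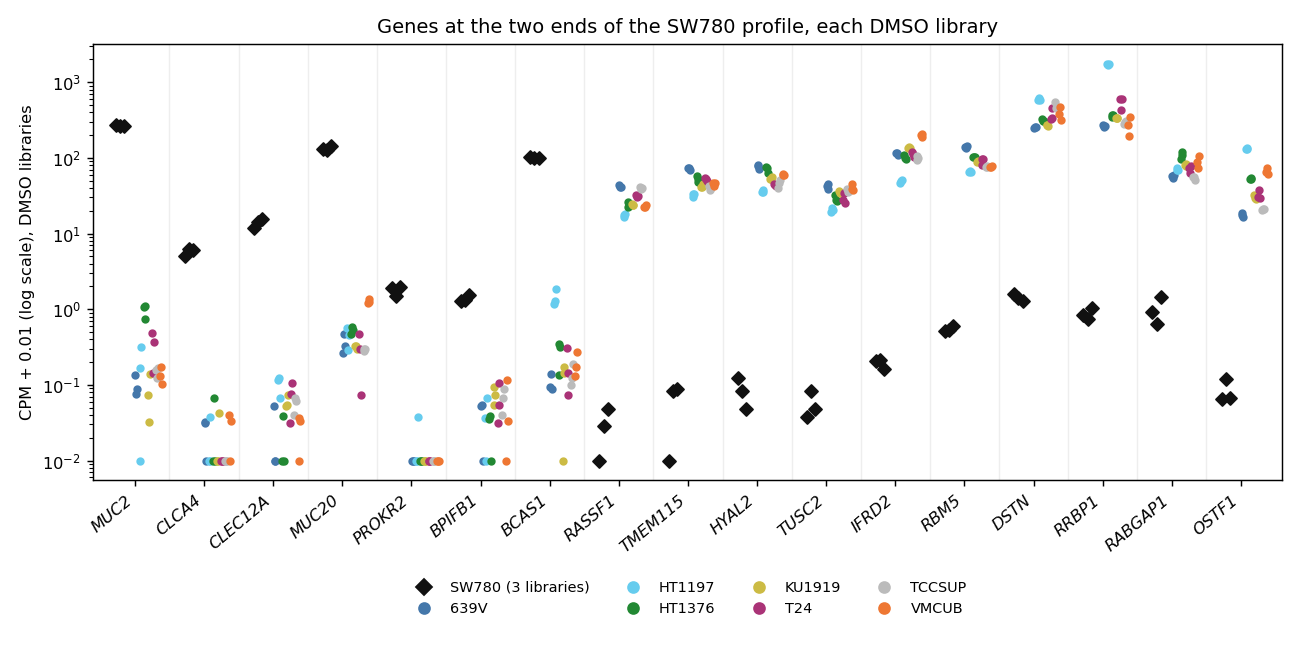
CPM plus 0.01 on a log axis in every DMSO library for genes at both ends of the SW780 profile, with SW780 as black diamonds left of the 21 libraries of the other lines as coloured dots. The SW780 libraries lie apart from all others, for example at 262 CPM or more for MUC2 where no other library passes 1.08 CPM, and at 0.0386 CPM or less for RASSF1 where no other library is under 16.5 CPM.

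At the lower end, 7 of the 9 genes called lower in SW780 lay in a single stretch of chromosome 3. RASSF1, a Ras-association domain protein that is silenced in many carcinomas, had 0, 0.0185 and 0.0386 CPM in SW780, from 3 counts in all, against 16.5 to 44.3 CPM (median 24.6) in the other lines. Its level was 0.0734% of the mean of the other lines, with an exact Poisson 95% interval of 0.0151 to 0.215% (edgeR adjusted p = 0.0227). CYB561D2, a transmembrane cytochrome, had 2 counts in SW780, or 0.0887% of the mean of the others (interval 0.0107 to 0.32%, adjusted p = 0.0319). The CYB561D2 call was lost with library totals (adjusted p = 0.0531, edgeR) and without any 1 of the other lines except HT1376 (up to 0.0962). No SW780 library of either gene came near any library of another line.

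TMEM115, a Golgi membrane protein, had 0, 0.0741 and 0.0771 CPM in SW780, against 30.1 to 73.3 CPM in the others (-9.72 ± 0.83, edgeR adjusted p = 0.0112). HYAL2, a membrane-bound hyaluronidase, had 0.112, 0.0741 and 0.0386 CPM in SW780, against 35.2 to 79.4 CPM (-9.60 ± 0.83, adjusted p = 0.0112). TUSC2, named as a tumour suppressor candidate, had 0.0279, 0.0741 and 0.0386 CPM in SW780, against 19.3 to 45.5 CPM (-9.38 ± 0.83, adjusted p = 0.0112). These 3 genes were separate from every library of the other lines. IFRD2, an interferon-related regulator protein, had 0.196, 0.204 and 0.154 CPM, against line means of 48.8 to 198 CPM (-9.31 ± 1.11, adjusted p = 0.0383), and RBM5, a splicing regulator, had 0.503, 0.519 and 0.598 CPM, against 65.4 to 142 CPM (-7.41 ± 0.71, adjusted p = 0.017). All 7 calls were lost without KU1919, those of RASSF1 and RBM5 also without T24 or VMCUB, and that of IFRD2 without any 1 line except HT1197 (edgeR adjusted p up to 0.109).

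The stretch was followed outward after these values had been seen, so its edges are a description with no test. From RBM6 to MAPKAPK3 the annotation (GENCODE 29, hg38) places 25 protein-coding genes on chr3:49940007-50649297, a span of 709 kb. Of these, 19 had a median of at least 1 CPM over the other lines, and all 19 were called below every other line. Of all 25 genes, 23 could be tested and 22 were called below every line, where the rate over all genes tested was 1.33%. SW780 had 0 to 4.97 CPM for the 19 genes, with 18 of them under 1 CPM and 12 under 0.1 CPM.

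GNAI2, an inhibitory G protein subunit, had 0.503, 0.63 and 0.771 CPM in SW780, against 136 to 609 CPM in the others (line-level adjusted p = 0.0743, edgeR). NPRL2, part of the GATOR1 complex that restrains mTORC1, had 0.0559, 0.0185 and 0.0386 CPM, against 9.53 to 28 CPM (adjusted p = 0.052). MAPKAPK3, a kinase downstream of p38, had 0.0838, 0.0371 and 0.154 CPM in SW780, against 20.1 to 185 CPM, with KU1919 the highest. These 3 missed the line-level threshold although no library overlapped. SEMA3F, a secreted semaphorin, had 0.14, 0.0927 and 0.0578 CPM in SW780, against 5.31 to 244 CPM, and SEMA3B, another, had 0, 0.0556 and 0.0386 CPM, against 0.772 to 89.7 CPM.

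Toward the edges, low levels ran up to the last gene on either side. RBM6, a relative of RBM5, had 4.92, 5.3 and 4.7 CPM in SW780, against 51.4 to 123 CPM, and its neighbour MON1A outside the stretch had 7.07 CPM on average, against line means of 8.23 to 25.9 CPM, still under each of them. At the other end HEMK1, a methyltransferase, had 0.726, 0.964 and 0.945 CPM in SW780, against 11.7 to 30.1 CPM, and CISH, a cytokine signalling inhibitor, had no count in SW780, which allows up to 0.0212 CPM, against 0.342 to 6.83 CPM. DOCK3, the next gene after MAPKAPK3, had 22 CPM in SW780, against line means of 0.338 to 28.9 CPM, within their range. SLC38A3, inside the stretch, was tested and not called, with 0.0784 CPM in SW780 and 0.0285 to 3 CPM in the others.

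A scan for such stretches was run in every line, also after the data had been seen. It took protein-coding genes with a median of at least 1 CPM over the other lines and marked a gene as low when a line had under 12.5% of that median and at most 50% of the lowest other line. SW780 had 138 such genes of 12364, in 7 runs of at least 2 neighbours, and its longest runs held 11 genes, RBM6 to RASSF1, and 7 genes, NPRL2 to MAPKAPK3. The other lines had from 67 such genes in 1 run (T24) to 360 in 36 runs (639V), so short runs are not particular to SW780. The longest runs of the other lines held 2 genes in T24, 3 each in HT1197, KU1919 and TCCSUP, 4 in VMCUB, 5 in 639V and 9 in HT1376. The other runs of SW780 were DSTN with RRBP1 on chromosome 20, LIFR with OSMR and CAMK4 with STARD4 and NREP on chromosome 5, HDAC9 with TWIST1 on chromosome 7, and LRFN4 with SYT12 on chromosome 11. DNA was not measured in these data.

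DSTN, the actin-depolymerizing factor destrin, had 1.59, 1.41 and 1.29 CPM in SW780, against 249.6 to 613 CPM (median 330.3) in the other lines (-8.10 ± 0.87, edgeR adjusted p = 0.0259). RRBP1, a ribosome-binding protein of the endoplasmic reticulum encoded next to it, had 0.838, 0.741 and 1.02 CPM in SW780, against 197 to 1751 CPM (-9.30 ± 1.93, adjusted p = 0.349). The expressed neighbours on either side, BFSP1 and SNX5, had 1.21 and 185 CPM in SW780, against line means of 1.69 to 31.2 CPM and 124 to 352 CPM. RABGAP1, a GTPase-activating protein encoded on chromosome 9, was the remaining gene called lower, with 0.922, 0.63 and 1.43 CPM in SW780, against 51.1 to 118 CPM (-6.26 ± 0.67, adjusted p = 0.0259). The DSTN call was lost on leaving out any single other line except HT1197 and HT1376 (edgeR adjusted p up to 0.0945). That of RABGAP1 was lost on leaving out any single other line except HT1197, HT1376 and TCCSUP (up to 0.0739). OSTF1, an osteoclast-stimulating adaptor, had 0.0559, 0.111 and 0.0578 CPM in SW780, against 16.4 to 136 CPM, and OPLAH, the 5-oxoprolinase of the glutathione cycle, had 0.112, 0.0371 and 0.0964 CPM, against 5.05 to 139 CPM. Both were below every line without passing the line-level test.

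On chromosome 9 a further set of low genes was the one that holds CDKN2A and CDKN2B, and here KU1919 was low as well. CDKN2A had 0.307, 0.297 and 0.231 CPM in SW780, against 0.18 to 761 CPM (median 149.8) in the other lines, with KU1919 at 0.269 CPM. CDKN2B had 0.0559, 0.0927 and 0.0578 CPM in SW780, against 0.0673 to 187 CPM, with KU1919 at 0.128 CPM. MTAP, the methylthioadenosine phosphorylase encoded beside them, had 0.866, 1.06 and 1.04 CPM in SW780, against 0.899 to 145 CPM, with KU1919 at 1.03 CPM. The libraries of SW780 overlapped with those of KU1919 for all 3 genes, and the line-level adjusted p was 0.998 for each (edgeR). IFNE, an epithelial interferon, and DMRTA1 had no count in SW780 or KU1919, against up to 4.29 CPM in 639V and 8.96 CPM in VMCUB.

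KLHL9, a substrate adaptor of a ubiquitin ligase encoded in the same region, separated SW780 from KU1919. It had 0.419, 0.575 and 0.443 CPM in SW780, against 21.6 to 58.3 CPM in the others, whose highest line was KU1919 at 57.6 CPM. KLHL9 was the 1 of 15 tested genes of this region below every line (6.67%), and its line-level difference was -6.26 ± 0.87 (edgeR adjusted p = 0.0697). FOCAD and HACD4, at one side of the region, had 22.7 and 8.28 CPM in SW780, against line means of 29.4 to 77.7 CPM and 1.58 to 20 CPM. The median log2 difference of the region's list was -3.42, where all genes had -0.25. The share below every line over all genes tested was 1.33%.

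**Figure D2:**
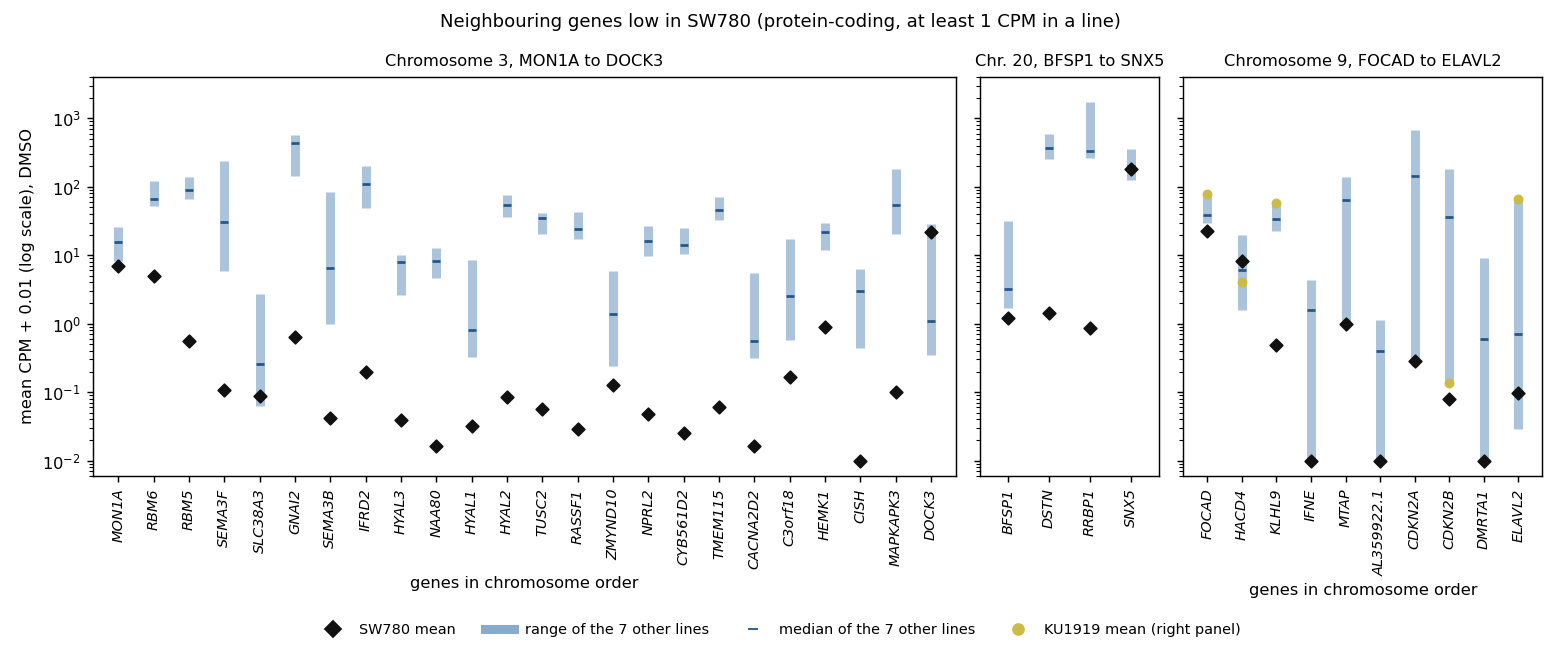
Mean CPM plus 0.01 on a log axis for neighbouring protein-coding genes in chromosome order, with SW780 as diamonds, the range of the 7 other lines as bars and their median as a dash. SW780 lies under the bars through most of the stretch from RBM6 to MAPKAPK3, is within them at DOCK3 with 22 CPM and at SNX5 with 185 CPM, and shares its low values of MTAP, CDKN2A and CDKN2B with KU1919.

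Few genes were on or off in 1 line alone. SW780 expressed 11 genes that were off in the 7 other lines (0.0682% of the 16128 genes with 1 CPM in a line), where each other line had 1 to 45, and lacked 16 genes that all others expressed (0.0992%), where each other line had 2 to 18. Beside CLCA4, CLEC12A, PROKR2 and BPIFB1, the 11 held UPK3A, the germ cell gene TDRD5 with 4.39 CPM in SW780 and at most 0.084 CPM in another library, and the pseudogenes KRT16P1 and RPL7AP28, whose reads may be shared with their parent genes. BCO1, TDH and CTNNA3, named because they complete the set, had 1.05, 1.16 and 1.07 CPM in SW780. Of the 16 genes that were off, 10 lay in the chromosome 3 stretch, and the others were OSTF1, OPLAH, SECTM1, ZC3HAV1L, FAM24B and C10orf88B. Counting a gene as off under 0.2 CPM took the 11 to 28, and counting it as expressed from 2 CPM took the 11 to 3.

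The uroplakin and umbrella cell list was the one in which SW780 stood above every line most often among the 31 lists, with 8 of 13 members tested (61.5%, where all genes had 2.16%) and none below. No member passed the line-level test, and 7 of 14 had an unadjusted p under 0.05 with SW780 higher. The list's median log2 difference was 3.51, and 4 of the 14 had a negative difference, where 13326 of all 21498 genes did. UPK1A had 61.9, 68.6 and 81.7 CPM in SW780, against 0 to 1.57 CPM (median 0.146) in the other lines, with KU1919 the nearest. UPK2 had 77.6, 80 and 93.7 CPM in SW780, against 0.0445 to 15.7 CPM, with HT1197 the nearest, and UPK3A had 0.922, 0.964 and 1.62 CPM, against 0 to 0.0829 CPM. The libraries did not overlap for these 3 genes, and the edgeR line-level adjusted p was 0.273 for UPK1A, 0.295 for UPK3A and 0.998 for UPK2.

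UPK1B, the partner of UPK3A in the plaque, did not follow this order. It had 180.2, 176 and 184 CPM in SW780, against 0.175 to 641 CPM, and SW780 ranked below HT1197 and HT1376, with HT1197 the highest at 627 CPM. SNX31, a sorting nexin that binds uroplakins, had 62.4, 66.4 and 66.1 CPM in SW780, against 0 to 0.228 CPM, and PSCA, a glycoprotein of the urothelial surface, had 359.8, 362 and 401 CPM, against 0.148 to 66 CPM. Both were apart from every other library. KRT20, the umbrella cell keratin, was low throughout, with 0.81, 0.778 and 1.04 CPM in SW780, against 0 to 0.304 CPM. UPK3B and the phospholipase gene PLA2G2F completed the 8, with 166 and 61.5 CPM in SW780, against at most 38.4 and 3.05 CPM, both in HT1376. Genes named beyond the naming rule, such as PSCA, UPK3B and PLA2G2F and the other list members called above or below every line, were chosen after their values were seen.

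Luminal regulators were mixed, with several high in SW780 but less set apart. Of the 22 members, 7 had a negative difference, where 13326 of all 21498 genes did. FOXA1 had 174, 169 and 175 CPM in SW780, against 0.112 to 71.4 CPM (median 43.7), and TBX3, a T-box factor, had 144, 144 and 140.1 CPM, against 0.464 to 74.7 CPM. These were the 2 of 22 members above every line (9.09%, where all genes had 2.16%), and for both the nearest line was T24. PPARG had 93.3, 94.2 and 98.8 CPM in SW780, against 2.62 to 86.3 CPM, and although no library overlapped, HT1197 at 83.4 CPM was within 2-fold. GATA3 had 144, 146 and 149 CPM in SW780, against 7.41 to 241 CPM, and HT1197 was higher. The list's 2 largest differences, of NKX2-1 and FOXA2, were negative, though the sign of FOXA2 turned with limma. NKX2-1 had no count in SW780, HT1197 or HT1376, against up to 1.21 CPM in KU1919. FOXA2 had 0.643, 0.612 and 0.501 CPM in SW780, under KU1919 (38.9 CPM) and T24 (9.78 to 10.3 CPM). No library of the remaining lines passed 0.0938 CPM for FOXA2. The median of the list was 0.83, and no member had a line-level p under 0.05, adjusted or not. SW780 was the highest of the 8 lines for 8 of the 20 members that reached 1 CPM in a line, where the share over all 16128 such genes was 10.3%.

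Among luminal surface and secretory genes, 7 of 24 lay above every line (29.2%, where all genes had 2.16%) and none below. The list's median was 0.92. S100P, a calcium-binding protein, had 529, 535 and 567 CPM in SW780, against 0.129 to 33.3 CPM. FABP4, a fatty acid carrier and PPARG target, had 222, 225 and 228 CPM in SW780, against 0 to 10.4 CPM, and CYP4B1, a cytochrome P450, had 18.7, 19.5 and 22.1 CPM, against 0 to 1.99 CPM. All 3 genes were apart from every other library. AGR2, a protein folding enzyme of mucus-secreting cells, had 68 CPM in SW780, against 18.7 CPM in HT1197, and SLC14A1, a urea transporter, had 23.9 CPM, against 10.1 CPM in TCCSUP. TFF1, a trefoil peptide, had 1.2 CPM in SW780, against 0.308 CPM in TCCSUP. MUC20, described above, was the 1 member that passed the line-level test, while AGR3 had 1 count in SW780 and 8.49 CPM in HT1197.

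No basal gene passed the line-level test, and SW780 had far lower KRT5 and KRT14 levels than the lines that express them most. KRT5 had 2.29, 2.3 and 1.89 CPM in SW780, against 0.868 to 1787 CPM (median 20.8), and KRT14 had 4.92, 4.43 and 4.18 CPM, against 0.951 to 2953 CPM (median 12.3). By line means 639V was lower still for both, at 1.1 and 1.11 CPM, and so was T24 replicate 3, at 0.868 and 1.13 CPM, so the place of SW780 against T24 rests on T24 replicates 1 and 2. TP63 was well expressed, with 88.2, 90.6 and 84.1 CPM in SW780, against 0.257 to 137 CPM. KRT6C had no count in SW780, against 4.68 CPM in HT1197, and PKP1, a desmosomal plakophilin, had 0.0853 CPM, against 262 CPM in HT1376. The median of the 41 members was -2.55, with 36 negative, where 13326 of the 21498 genes tested were negative, and none lay below every line. SW780 was the lowest line for 5 of the 41, where the share over all genes with 1 CPM in a line was 11.3%. Without T24 replicates 1 and 2 the KRT5 difference was -8.06, where it had been -8.07 with them.

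Of the same list, 2 members lay above every line (4.88%, where all genes had 2.16%), and both belong to differentiating layers. KRT13, a keratin of intermediate urothelial cells and stratified epithelia, had 900.3, 812 and 893 CPM in SW780, against 0.219 to 56.4 CPM. IVL, the cornified envelope protein involucrin, had 105, 81.4 and 101 CPM in SW780, against 0 to 38.1 CPM. Their smallest log2 differences from another line were 4.10 and 1.40.

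**Figure D3:**
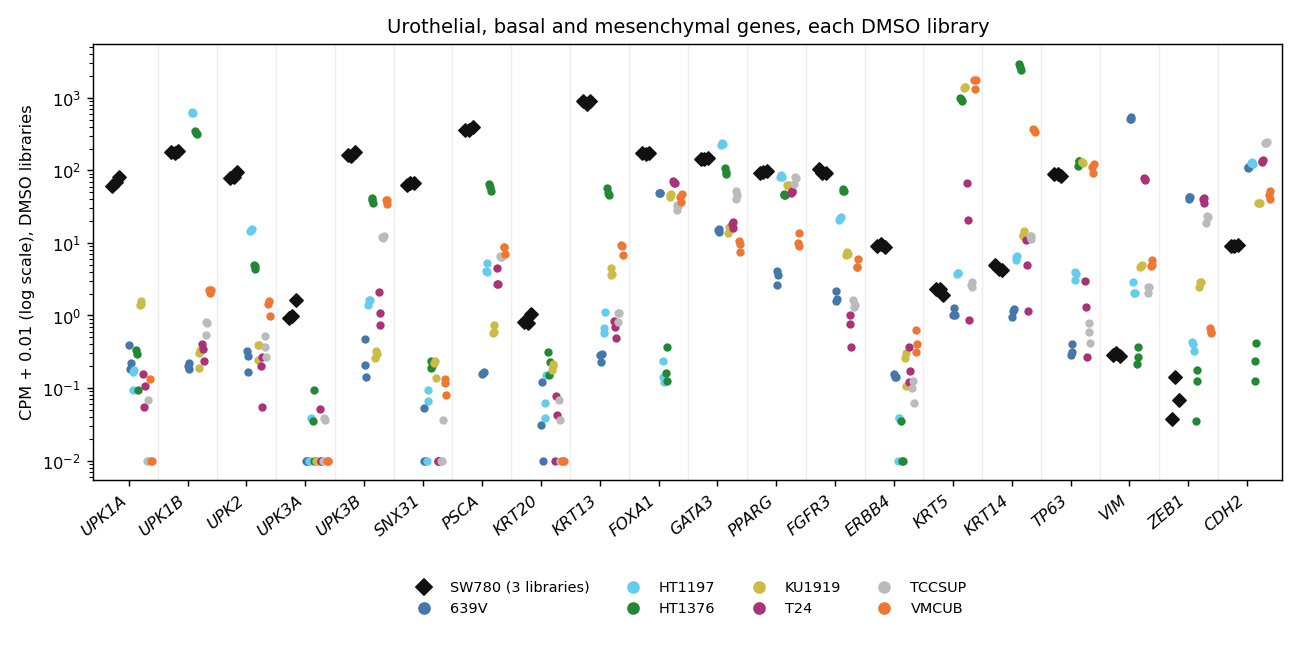
CPM plus 0.01 on a log axis in every DMSO library for urothelial, receptor, basal and mesenchymal genes, with SW780 as black diamonds left of the 21 libraries of the other lines. SW780 stands above the other libraries for UPK1A, UPK2, FOXA1 and FGFR3, while UPK1B, GATA3 and TP63 are exceeded by other lines and KRT5, KRT14 and VIM overlap with lines at low levels.

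All 26 epithelial junction genes had over 1 CPM in SW780, as did 23 of 37 mesenchymal transition genes. CDH1, which encodes E-cadherin, had 282, 281 and 266 CPM in SW780, against 0.55 to 1552 CPM (median 169), and SW780 was exceeded by HT1197 and KU1919. TMC4, a transmembrane channel-like protein, was the 1 of 26 junction list members above every line (3.85%, where all genes had 2.16%). It had 87.2, 85.2 and 90.2 CPM in SW780, against 0.619 to 22 CPM. ST14, the serine protease matriptase, had 374, 346 and 373 CPM in SW780, against 0.359 to 477 CPM, behind HT1197. The list's median was 0.47, and the epithelial keratins KRT8, KRT18, KRT19 and KRT7 had 2233, 1371, 2131 and 4998 CPM in SW780.

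Of the mesenchymal transition list, 36 of 37 members had a negative difference, where 13326 of all 21498 genes did, and the median was -3.97. SW780 was the lowest line for 11 of the 37, where the share over all genes with 1 CPM in a line was 11.3%. No member passed the line-level test, and FN1 and CAV1 had 188 and 526 CPM in SW780. VIM, the intermediate filament vimentin, had 0.279, 0.297 and 0.27 CPM in SW780, against 0.202 to 545 CPM (median 4.74), overlapping with HT1376. ZEB1, a repressor of CDH1, had 0.0279, 0.13 and 0.0578 CPM in SW780, against 0.0253 to 43.5 CPM, and CDH2, or N-cadherin, had 9.08, 9.16 and 9.23 CPM, against 0.114 to 244 CPM. Neither was apart from the other lines. SNAI1, another such repressor, and FBN1, the matrix protein fibrillin, were the 2 members below every line (5.41%, where all genes had 1.33%), with 0.104 and 1.02 CPM in SW780, against at least 0.308 CPM in 639V and 2.88 CPM in VMCUB. SPARC, a matrix-binding glycoprotein, had 0.514 CPM in SW780, against 0.699 CPM in 639V and 1389.7 CPM in HT1197, and TWIST2 had no count, against 7.6 CPM in KU1919. MMP2, a gelatinase, was the 1 member with a positive difference, with 66.2, 58.8 and 63.8 CPM in SW780, against 0 to 49.7 CPM.

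Among growth factor receptors, SW780 was highest for FGFR3 and ERBB4. FGFR3 had 106, 90.9 and 92.7 CPM in SW780, against 0.354 to 54.8 CPM (median 4.72), and HT1376 at 52.7 CPM was within 2-fold, so the gene was not called above every line. FGFR1 had 3.1, 3.02 and 3.45 CPM in SW780, against 0.354 to 192 CPM (median 54.1), and FGFR2 had 21.5, 19.5 and 19.6 CPM, against 0.0211 to 55 CPM. Both lay inside the range of the other lines. No member of the FGF list of 27 lay above or below every line, and its median was -0.82. FGF5 had 0.0881 CPM in SW780, against 50.7 CPM in T24, and FGF19 had no count, against 0.943 CPM in KU1919.

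ERBB4, a receptor for neuregulins, had 9.14, 9.77 and 8.87 CPM in SW780, against 0 to 0.614 CPM, and its ligand NRG4 had 12.6, 12 and 12.2 CPM, against 0.288 to 5.5 CPM. They were the 2 of 13 ERBB members above every line (15.4%, where all genes had 2.16%). EPGN, the ligand epigen, had 0.244 CPM in SW780, against 59.8 CPM in HT1197, and the list's median was -1.90, which lay above that of all genes with limma voom.

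Enzymes of foreign compound and steroid metabolism were often highest in SW780. Of 30 tested, 7 lay above every line (23.3%, where all genes had 2.16%) and none below, and the list median was 1.42. UGT1A10, a glucuronosyltransferase of the gut, had 474, 491 and 525 CPM in SW780, against 0 to 23.8 CPM (median 1.63), although the UGT1A genes share exons and the split among them is uncertain. ALDH3A1, an aldehyde dehydrogenase, had 1150.4, 1104 and 1119 CPM in SW780, against 0.28 to 349 CPM, and GPX2, an epithelial glutathione peroxidase, had 249, 249.6 and 266 CPM, against 0.262 to 123 CPM. AKR1C2 and AKR1C3, near-identical aldo-keto reductases whose reads may be split, had 405 and 548 CPM in SW780, against at most 97.5 and 257 CPM, both in TCCSUP. CYP3A5 had 13.4, 14.1 and 13.7 CPM in SW780, against 1.02 to 3.22 CPM, and CYP24A1, which degrades active vitamin D, had 23.2, 22 and 24.9 CPM, against 0 to 8.59 CPM. CYP1B1 lay the other way, with 0.0722 CPM in SW780, against 0.0912 CPM in HT1197 and 201 CPM in TCCSUP.

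Intestinal and glandular genes were split, with MUC2, CEACAM5 and CEACAM6 above every line and GATA6 below. These were 13.6% and 4.55% of 22, where all genes had 2.16% and 1.33%, and the median was -0.62. CEACAM6, a cell surface adhesion glycoprotein, had 119, 117 and 121 CPM in SW780, against 0 to 4.57 CPM, and its relative CEACAM5 had 2.26, 1.67 and 1.83 CPM, against 0 to 0.263 CPM. GATA6, an endodermal transcription factor, had 3.02, 2.89 and 2.6 CPM in SW780, against 6.17 to 63.3 CPM.

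Among retinoid and PPARG targets, ALDH1A2 and PLIN5 lay above every line and RARRES1 and ANGPTL4 below (7.69% of 26 each way), with a median of -1.73, whose sign relative to all genes turned with DESeq2 and limma and without TCCSUP. ALDH1A2, which makes retinoic acid, and PLIN5, a lipid droplet protein, had 1.73 and 2.4 CPM in SW780, against at most 0.664 and 0.961 CPM. RARRES1 and ANGPTL4 had 0.0631 and 0.258 CPM in SW780, against at least 0.238 and 1.01 CPM in KU1919. LPL, the lipoprotein lipase, had 0.0377 CPM in SW780, against 23.3 CPM in HT1376. The shares over all genes tested were 2.16% above every line and 1.33% below.

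The type I interferon list had a median of -1.71 with 32 of 37 members negative, where 13326 of all 21498 genes were. SW780 was the lowest line for 4 of the 37, where the share over all genes with 1 CPM in a line was 11.3%. IFI27 and IFIT1 lay below every line (5.41%, where all genes had 1.33%). IFI27 had 0.81, 0.741 and 0.713 CPM in SW780, against 1.48 to 2002 CPM, and IFIT1, which binds foreign RNA, had 4.5, 4.58 and 4.86 CPM, against 9.16 to 349 CPM. HT1197 was the highest line for both, and IFI6 had 11.5 CPM in SW780, against 3505 CPM in HT1197. Cytokines and chemokines had a median of -2.26 with no member above or below every line. SW780 was the lowest line for 5 of the 34 members that reached 1 CPM in a line. CXCL2 had 0.0281 CPM in SW780, against 0.0551 CPM in 639V and 41.2 CPM in HT1376, and CCL2 had no count in SW780.

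In antigen presentation, ERAP2, a peptide-trimming aminopeptidase, was the 1 of 19 genes above every line (5.26%), with 70.5, 74.8 and 71.6 CPM in SW780, against 2.54 to 27.9 CPM. CALR, the chaperone calreticulin, was the 1 of 19 below, with 432, 424 and 436 CPM in SW780, against 889 to 1692 CPM. All genes tested had 2.16% above every line and 1.33% below, so 1 call each way says little of the list. NLRC5, the activator of MHC class I genes, had 2.29 CPM in SW780, against 1.06 CPM in HT1197 and 85.9 CPM in TCCSUP. None of 13 MHC class II genes was called, with HLA-DPB1 and HLA-DPA1 at 0.172 and 0.0938 CPM in SW780, against up to 25.7 and 7.19 CPM in T24.

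Cancer/testis antigens had the lowest list median, -4.44. Of the 28 that reached 1 CPM in a line, SW780 was the lowest line for 4, where all such genes had 11.3%. PRAME had 3 counts in SW780, against 75.2 CPM in KU1919, and CT83 had none, against 6.96 CPM in TCCSUP. DAZL, a germ cell RNA-binding protein, was the 1 of 32 above every line (3.12%, where all genes had 2.16%). It had 3.66, 3.98 and 3.53 CPM in SW780, against 0 to 0.481 CPM. The neuronal list had a median of -2.73, and SW780 was the lowest line for 2 of its 21 members with 1 CPM in a line. NES, the intermediate filament nestin, was the 1 of 23 below every line (4.35%, where all genes had 1.33%). It had 0.0279, 0.0927 and 0.0964 CPM in SW780, against 0.442 to 75.8 CPM. UCHL1, a neuronal ubiquitin hydrolase, had 0.653 CPM in SW780, against 0.355 CPM in HT1197 and 348 CPM in TCCSUP. The homeobox genes HOXC10 and HOXC11 had 2 counts and none in SW780, against 52.9 CPM in 639V and 5.69 CPM in TCCSUP. The HOX list's median was -0.39.

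DKK3, a secreted protein of the Dickkopf family, was the 1 of 35 Wnt list members below every line (2.86%), with 0.196, 0.371 and 0.27 CPM in SW780, against 9.79 to 554 CPM (median 58.2). FRZB, a secreted Wnt antagonist, had 0.0563 CPM in SW780, against 19.2 CPM in 639V. NR3C2, the mineralocorticoid receptor, was the 1 of 27 nuclear receptors below every line (3.7%), with 0.279, 0.259 and 0.328 CPM in SW780, against 0.534 to 10.8 CPM, and the receptor genes RXRG and NR1I2 had 2 counts and 1 count. STARD4, a sterol carrier, was the 1 of 25 cholesterol genes below every line (4%), with 3.52, 3.98 and 3.62 CPM in SW780, against 24.7 to 89.8 CPM. The Wnt, nuclear receptor and cholesterol lists had medians of -0.88, -0.62 and -0.38. All genes tested had 1.33% below every line, so 1 call in each says little of these lists as sets.

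Chromatin and cell cycle genes did not set SW780 apart by these rules. EZH2, the target of CPI-0209, had 55, 55.7 and 57.2 CPM in SW780, against 39.5 to 102 CPM (-0.42 ± 0.50, edgeR adjusted p = 0.998). Over all 16128 genes with 1 CPM in a line, SW780 was the lowest line for 11.3%. None of 32 PRC2 and PRC1 subunits, 25 chromatin regulators or 42 cell cycle genes lay above or below every line, and the medians were -0.15, -0.19 and -0.30. CBX2, a PRC1 chromodomain subunit, had 67.9 CPM in SW780, against 5.18 to 54.4 CPM in the line means of the others, and PCGF6, another PRC1 subunit, had 6.57 CPM, against 9.38 to 19.8 CPM. TET1, a methylcytosine dioxygenase, had 0.668 CPM in SW780, against line means of 0.748 to 12.7 CPM, and SW780 was the lowest line.

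CDKN1A, a cyclin-dependent kinase inhibitor, had 207 CPM in SW780, against line means of 7.77 to 639.8 CPM. BTG2, an antiproliferative gene, had 159 CPM in SW780, against line means of 4.07 to 106 CPM, and PMAIP1, a gene that promotes apoptosis, had 12.6 CPM, against 7.9 to 114 CPM. BTG2 was highest in SW780 and CDKN1A and PMAIP1 lay inside the range of the other lines. CCND2, a D-type cyclin, had 1 count in SW780, against 40.8 CPM in 639V, and CDKN1C, a relative of CDKN1A, had 0.355 CPM, against line means of 0.525 to 21.8 CPM. Housekeeping genes had a median of -0.49 with none called, and ACTB and YWHAZ were lowest in SW780, at 2978 and 528 CPM, against at least 4795 CPM in 639V and 702 CPM in HT1376.

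Markers of other cell types were summed per library. The 12 fibroblast markers came to 109 to 123 CPM in SW780 and 31.4 to 9736 CPM in the other lines, with DPT at 0, 4 of 12 under 1 CPM, COL1A2 and DCN at 1.05 and 0.209 CPM and the highest, LUM and COL3A1, at 39.3 and 33.2 CPM. The 15 leukocyte markers came to 13.6 to 15 CPM in SW780 and 12.8 to 106 CPM in the others, with MS4A1 and FCGR3A at 0 and 14 of 15 under 1 CPM. The remaining one, CD68, had 11.9 CPM, near the level of CLEC12A, while PTPRC, CD14 and CSF1R had 0.178, 0.281 and 0.131 CPM, and the part of these markers in the CLEC12A level was not tested. The 11 endothelial markers came to 8.83 to 9.36 CPM in SW780 and 0.867 to 46.5 CPM in the others, with KDR at 0, 8 under 1 CPM and VWF above every line at 2.82 CPM, against at most 0.871 CPM. The 8 smooth muscle markers came to 48.3 to 51.6 CPM in SW780 and 54.1 to 875 CPM in the others, with 5 of 8 under 1 CPM, CNN1 and ACTG2 at 0.134 and 0.22 CPM, and SMTN, MYLK and MYH11 at 40.9, 5.86 and 2.09 CPM.

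**Figure D4:**
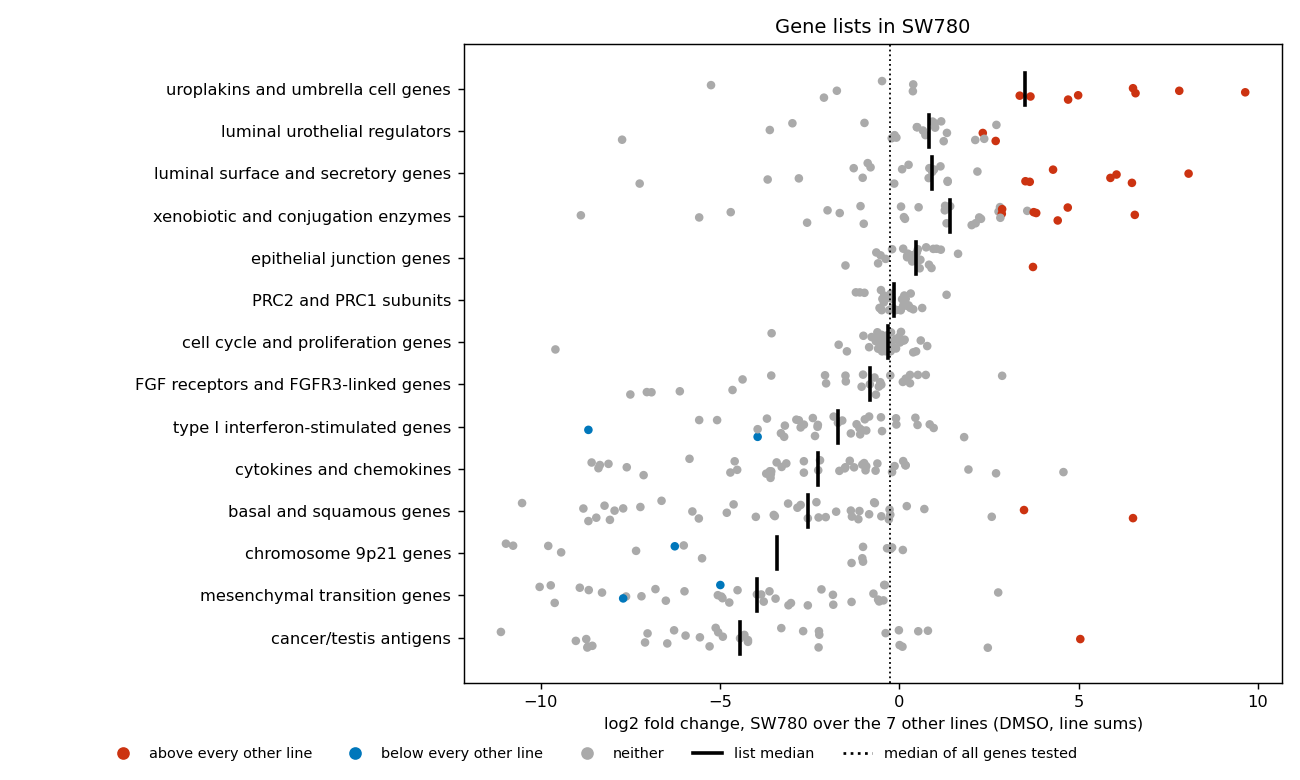
Log2 fold change of SW780 over the 7 other lines for the members of gene lists, with the list median as a bar and the median of all genes tested, -0.25, as a dotted line. Members called above every other line are red and those called below are blue, and the list medians run from 3.51 for uroplakins to -4.44 for cancer/testis antigens.

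By rank correlation of line means across 18643 genes, which are not independent and share library type and depth, SW780 was most like VMCUB (Spearman rho = 0.892) and then KU1919 (0.885), T24 (0.882), HT1376 (0.875), HT1197 (0.871), 639V (0.849) and TCCSUP (0.843). Genes past the threshold and at least 2-fold apart numbered 4047 higher and 3065 lower in SW780 against VMCUB, 3283 higher and 3399 lower against KU1919, 3827 higher and 2752 lower against T24, and 3701 higher and 3232 lower against 639V. This count put the lines in another order, with the fewest genes against T24, then KU1919, 639V and VMCUB. For the 402 genes above every line, the nearest line was HT1376 in 94, HT1197 in 74, TCCSUP in 68, KU1919 in 67, VMCUB in 53, 639V in 27 and T24 in 19. By chromosome, the median log2 difference was lowest on chromosome 9, at -0.41 over 764 genes, and highest on chromosome 21, at 0.28 over 188 genes. Chromosome 3 held 34 of the 248 genes below every line, of which 22 lay in the stretch from RBM6 to MAPKAPK3.

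The same line-level comparison in the CPI-0209 libraries called 1 of 22321 genes higher in SW780 (0.00448%) and 8 lower (0.0358%), with 459 (2.06%) and 469 (2.1%) at an unadjusted p under 0.05. The gene called higher was CLEC12A, with 8.19 CPM in CPI-0209-treated SW780 and a log2 difference of 7.73 (edgeR adjusted p = 0.0404). The 8 lower genes were DSTN, HYAL2, IFRD2, RASSF1, RBM5, TMEM115, TUSC2 and KLHL9, and the first 7 of these were also among the 9 called in DMSO. Leaving out KU1919, T24 or VMCUB ended every call. MUC2 and MUC20 had 104 and 92.1 CPM in CPI-0209-treated SW780 and differences of 6.52 and 6.20, and they missed the threshold (adjusted p = 0.899 and 0.212). Of the 19 expressed genes of the chromosome 3 stretch, 18 were again under 1 CPM in SW780, and the highest, RBM6, had 6.07 CPM. Of the 11 genes expressed in SW780 alone, 4 were so again among 7 under CPI-0209, and of the 16 that were off, 12 were off again among 14.

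Within SW780, CPI-0209 raised 5208 genes (30.8% of 16897) and lowered 5114 (30.3%) relative to DMSO, and several genes that mark the line were among them. These changes share the SW780 DMSO libraries with the comparison between lines, so they are given side by side. UPK1A (-1.29 ± 0.11, edgeR adjusted p = 4.81e-05), UPK2 (-1.45 ± 0.07), UPK1B (-1.31 ± 0.04), UPK3A (-1.88 ± 0.27) and SNX31 (-0.88 ± 0.05) all fell on the log2 scale. So did MUC2 (-1.46 ± 0.08) and CEACAM6 (-2.05 ± 0.05). FOXA1 (0.04 ± 0.04, adjusted p = 0.463) and FGFR3 (0.04 ± 0.06, adjusted p = 0.613) did not pass the test. CLCA4 (0.58 ± 0.08) and PROKR2 (0.93 ± 0.13) rose. With library totals in place of TMM factors, 8499 genes were higher and 2839 lower, the median of all genes moved to 0.22 where it had been 0.02, and FOXA1 (0.24), FGFR3 (0.24) and DSTN (0.46) passed the test.

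Genes that were low or absent in SW780 in DMSO differed in this respect. RBM5 (-0.19 ± 0.26, edgeR adjusted p = 0.55), DSTN (0.26 ± 0.17, 0.189), RRBP1 (-0.02 ± 0.21, 0.947), RABGAP1 (0.25 ± 0.25, 0.404) and CDKN2A (0.15 ± 0.35, 0.738) did not pass the test. LIFR, the receptor of leukaemia inhibitory factor, rose (4.67 ± 0.14, adjusted p = 1.19e-14) and had 8.76 CPM under CPI-0209. LPL rose to 3.33 CPM under CPI-0209, against 5 counts in DMSO. CCND2, with 1 count in DMSO, had 3.54 CPM, and GATA4, a cardiac and endodermal factor with none, had 2.34 CPM. Of genes that SW780 expressed in DMSO at 1 CPM or more, KRT5 (2.15 ± 0.10), CDH2 (1.03 ± 0.06), FGFR1 (2.04 ± 0.08) and STARD4 (1.69 ± 0.08) also rose.

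**Figure D5:**
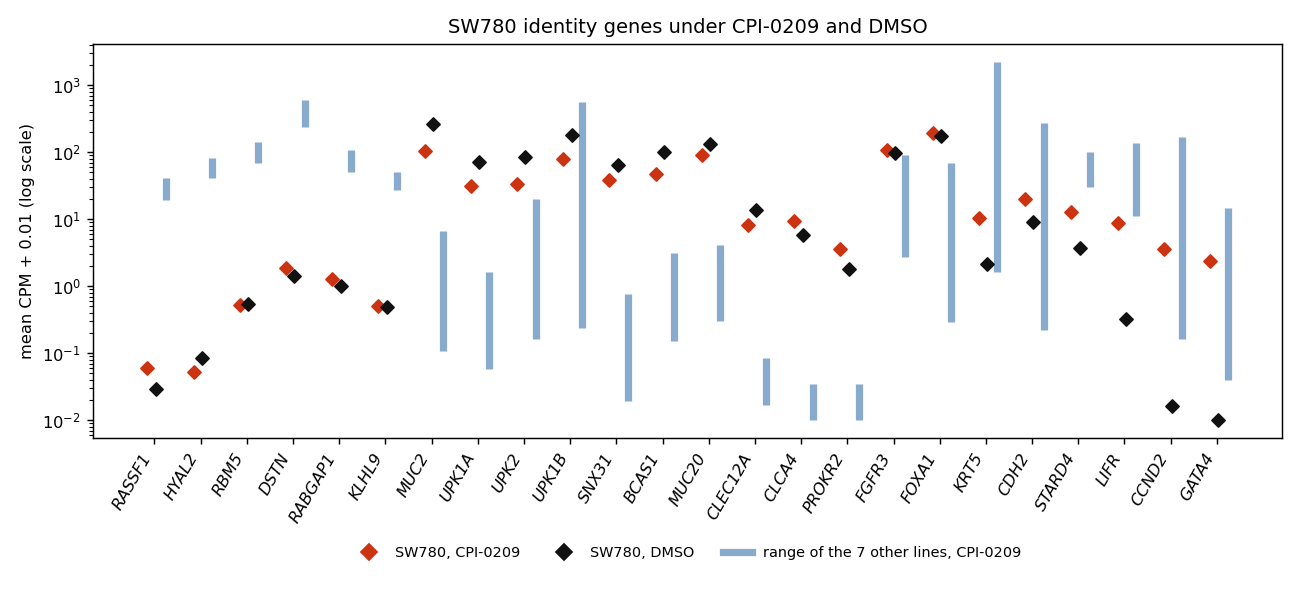
Mean CPM plus 0.01 on a log axis in SW780 with CPI-0209 (red) and with DMSO (black), beside the range of the 7 other lines with CPI-0209 (bars), with CPM scaled within each treatment. RBM5, DSTN, RABGAP1 and KLHL9 lie under the bars in both treatments, while LIFR, CCND2 and GATA4 have 8.76, 3.54 and 2.34 CPM under CPI-0209.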

How the data were processed

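RNA was sequenced from 8 bladder cancer lines treated with DMSO or CPI-0209, with 3 libraries per line and treatment. Per the labels' protocols, total RNA was taken with Trizol and sequenced paired-end on an Illumina instrument, and per the submitters' processing notes STAR 2.7.3a, RSEM 1.3.1 and the hg38 genome were used, with no roles or strand setting given. The deposited table holds whole-number counts for 35535 genes, and library totals over all 48 libraries were 26481418 to 50916911. The members and gene lists were chosen with earlier results of these data known.

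From the counts, edgeR 4.0.16 (R 4.3.3) computed TMM factors, CPM and quasi-likelihood tests with Benjamini-Hochberg adjustment over all genes tested, after its filter on low counts. At the line level the filter asks for enough counts in a single sum, so genes nearly absent from the other lines entered through SW780 alone. CPM were scaled separately in DMSO and CPI-0209. For the line-level test the 3 libraries of each line were summed, giving 8 sums and 6 residual degrees of freedom, and the log2 fold change is SW780 over the fitted mean of the 7 other sums on the count scale, not the mean of their logs that the design had named. The test by single libraries used 7 contrasts. Genes were named by rule: called genes with at least 5 CPM on the higher side (15 higher, 12 lower, largest fold), the 8 most extreme above and below every line, up to 4 called or the 2 largest members of each list, a fixed set of 24 genes, and the 8 highest that were on or off in SW780 alone; some genes that the rule names are not reported here. Alternatives were RLE factors, library totals, no filter, thinned counts, DESeq2 1.42.0, limma 3.58.1 (voom, and trend on line means, which uses mean logs), a replicate block, and leaving out each line or library. The scripts were tested on simulated data. Intervals and the floor of 3 counts cover counting error only.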

Additional observations from a re-analysis of the deposited data

Results flagged for a closer look

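Among the 17 genes called in the line-level comparison, the 7 other lines were searched for a line far from the rest, a test that marks about 1 group in 20 by chance. For PROKR2, HT1197 stood apart with a mean of 0.00935 CPM, which comes from 1 count, while the other 6 lines were at 0. With the rest at 0 any single count is marked, so the 1 in 20 does not apply to PROKR2. For MUC20, VMCUB stood apart with a mean of 1.26 CPM, where the other 6 lines had 0.271 to 0.517 CPM. In SW780 the means were 1.77 CPM for PROKR2 and 133 CPM for MUC20.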

How the results depend on the processing

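The line-level calls in DMSO, 8 higher and 9 lower, depended on the tool and on which lines were kept. DESeq2 gave 133 higher and 235 lower and included all 17 calls, limma voom gave 423 and 51 and included 15, and limma trend on line means gave 45 and 25 and included 17. Library totals gave 13 higher and 8 lower and included 16, so that 61.9% of calls were higher, against 47.1% with TMM. Without KU1919 there were 0 and 0 calls, without T24 2 and 3, without 639V 2 and 5, without TCCSUP 3 higher, and without VMCUB 2 and 3, with 1 line fewer behind the spread. Leaving out 1 library gave 4 to 12 higher and 9 to 10 lower. Leaving out T24 replicates 1 and 2, chosen after seeing the data, kept 16 of the 17 calls.

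In the CPI-0209 libraries, where 1 gene was higher and 8 lower, library totals gave 2 lower, DESeq2 94 and 258, limma voom 388 and 77, and limma trend 22 and 26. Without HT1376 1 gene was lower, without 639V 5, without TCCSUP 2 were higher and 4 lower, and without KU1919, T24 or VMCUB 0 and 0. Leaving out 1 library gave 0 to 3 higher and 6 to 8 lower.

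The genes above and below every line numbered 1072 and 887 with no fold threshold, and 389 to 417 and 235 to 249 with 1 library left out. Library totals moved the share of calls above to 71.9%, against 61.8%. Without T24 replicates 1 and 2, 387 of the 402 and 228 of the 248 were kept. Genes expressed in SW780 alone numbered 28 with off under 0.2 CPM and 3 with expressed from 2 CPM, and 10 to 12 with 1 library left out, where those off alone numbered 13 to 18. Within SW780, CPI-0209 raised 8499 genes and lowered 2839 with library totals, and 4890 to 5029 and 4834 to 5004 with 1 library left out.

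DMSO libraries of different lines with the same replicate number mostly did not deviate together, with correlations of -0.122 to 0.343 and a median near 0. DMSO and CPI-0209 libraries of the same line were not compared in this way. The check therefore cannot say whether the numbers pair those. With the replicate number as a block, 402 genes lay above and 244 below every line, and CPI-0209 raised 5325 and lowered 5293 genes in SW780. No block was possible for line sums.

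Among the genes given here, single values that turned sign, none of them called, were FOXA2 (-3.61, against 1.04 with limma voom and 0.70 with limma trend), CDH1 (-0.38, against 2.03 with limma voom, 2.14 with limma trend and 0.75 without HT1197), FGFR2 (0.18, against -0.02 without T24 and -0.03 without 639V or TCCSUP) and CDKN1A (0.19, against -0.03 without 639V). Relative to all genes, the ERBB list median was 0.10 with limma voom, and the retinoid and PPARG list median was 0.50 with DESeq2, 0.79 with limma voom, 0.63 with limma trend and 0.46 without TCCSUP. The cause was not tested. At this depth, 3 counts over the SW780 libraries correspond to 0.0212 CPM, below which a level could not be seen.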
